A study of Homo sapiens with 6 samples.

Results

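Heme breakdown and heme transport genes were examined in HT-1080 cells given PhenDC3. The members are the 8 genes HMOX1, HMOX2, BLVRA, BLVRB, SLC48A1, FLVCR1, FLVCR2 and PGRMC1, chosen by symbol from the 22925 genes of the deposited table. All 8 were found, and all 8 passed the filter on low values. HT-1080 is an established human fibrosarcoma line. PhenDC3 is a synthetic ligand of G quadruplexes, 4-stranded folds of guanine-rich DNA or RNA, which it holds in place. Poly(A) RNA was sequenced from 3 libraries of cells kept for 48 h in 20 μM PhenDC3 with 1% DMSO, and from 3 libraries of cells kept for 48 h in 1% DMSO without the ligand. Both groups thus carry the solvent, and no untreated cells were analysed here. A single dose, a single time and a single line were measured.

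Heme is an iron porphyrin that serves as the cofactor of hemoglobin, cytochromes and many enzymes, and is toxic when free. Heme oxygenase opens the ring and releases biliverdin, carbon monoxide and iron, and biliverdin reductase turns biliverdin into bilirubin. HMOX1 is the inducible heme oxygenase, held down by the repressor BACH1 and activated by NRF2, while HMOX2 is the constitutive form. Membrane carriers move heme between compartments, and binding proteins such as PGRMC1 hold it on the way.

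Of the 8 members, 4 rose (HMOX1, SLC48A1, FLVCR1 and FLVCR2), PGRMC1 fell and 3 did not pass the test (HMOX2, BLVRA and BLVRB). Across all 16482 genes tested with limma, 59.6% changed at an adjusted p under 0.05, 29.2% being higher and 30.4% lower, so 5 of 8 is close to the background. The members' median log2 change was 0.36, against -0.02 over all tested genes. In 5 members the groups did not overlap, which was also true of 64.1% of all tested genes. On recovered reads edgeR called 5 members, against 63.0% of its 14984 genes. The authors' deposited table and DESeq2 run here each called 5, against 39.0% of 21593 genes. Those genes did not go through the filter on low values used for limma, so the shares are not alike. Levels are normalized read counts, that is, gene reads divided by a size factor per library. Log2 changes are of the value plus 1, PhenDC3 over DMSO, and errors are SDs over 3 libraries unless named otherwise. The labels do not tie the replicates to separate cultures, and the spread behind each p-value may therefore be technical.

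The libraries held between 7371056 and 14292987 reads assigned to genes, and each PhenDC3 library was shallower than each DMSO library. Reads from the mitochondrial genome made up 3.72% to 3.96% of DMSO libraries and 15.4% to 15.5% of PhenDC3 libraries. DMSO replicate 3 differed most from its group, with a chi-square divided by its degrees of freedom of 7.12 and 7.75 against the others. Of 6 mesenchymal markers, whose summed level ran from 32196 to 35696 in DMSO and from 18963 to 19148 in PhenDC3, 3 were called lower, COL1A1 was called higher and COL1A2 and THY1 were too low to be tested. VIM, the most abundant of them, had means of 25153 and 13620. Of 10 erythroid markers, 8 were not analysed here and HBG2 and EPB42 were detected. Their summed level was 17.9 to 24.7 in DMSO and 53.8 to 65.1 in PhenDC3. Both were called higher, from 11 to 17 reads per library for HBG2 and 12 to 40 for EPB42. The 3 macrophage markers of 9 that were analysed summed to 11.7 to 15.6 in DMSO and 27.2 to 40.2 in PhenDC3, and CD163 had no reads in DMSO. Reads were few, at 6 to 16 per library for CD68, 5 to 14 for CSF1R and 0 to 2 for CD163. CD68 was called higher, CSF1R was not called and CD163 was too low to be tested. Of 5 hepatocyte markers, SERPINA1 was called lower, with means of 9.31 and 2.66 normalized counts, and APOA1 was too low to be tested. Of 5 epithelial markers, CLDN4 was at 66.8 and 68.5 and was not called. Of 4 endothelial markers, EGFL7 was at 257 and 280 and was not called, and VWF was too low to be tested. The other markers of these lists were not analysed here. The part of these markers in the results was not tested.

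HMOX1 (ENSG00000100292, chromosome 22), the inducible heme oxygenase, was the member that changed most. In the DMSO libraries it stood at 142, 161 and 177 normalized counts, from 182, 208 and 257 reads. In the PhenDC3 libraries it stood at 4775, 4499 and 4735, from 4035, 3022 and 3609 reads. Every PhenDC3 library lay far above every DMSO library. The rise was 29.2-fold, with a 95% confidence interval of 26.0-fold to 32.7-fold (limma, log2 change of 4.86, SE 0.08, adjusted p = 1.68e-20). By log2 change it stood at rank 25 from the top of 16482 tested genes. In the authors' deposited table its log2 fold change was 4.86. In RNA from whole cultures, more cells with a transcript and more of it per cell cannot be told apart.

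HMOX2 (ENSG00000103415, chromosome 16), the constitutive heme oxygenase, read 401, 418 and 466 normalized counts in DMSO and 505, 399 and 412 in PhenDC3. The 2 groups overlapped, and PhenDC3 replicate 1 held the highest value of the 6. The difference did not pass the test (limma, log2 change of 0.03, SE 0.10, adjusted p = 0.81). Its 95% interval ran from 0.889 to 1.17 times the DMSO level, so a rise like that of HMOX1 lies far outside it. Without PhenDC3 replicate 1 the log2 change was -0.08, and without DMSO replicate 1 it was -0.02, both also short of the threshold. HMOX2 shares 228 annotated exonic bases with NMRAL1 on the opposite strand, a gene at 4.89 and 10.5 normalized counts, and whether the counting used strand is not given in these sources.

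The balance between the isozymes was therefore compared within each library, where scaling and gene length drop out of the change. The ratio of HMOX1 to HMOX2 counts was 0.353, 0.384 and 0.380 in DMSO and 9.45, 11.3 and 11.5 in PhenDC3. The 2 groups did not overlap, and the ratio changed 28.6-fold. An exact two-sided permutation test gave p = 0.1, the smallest that 3 against 3 libraries allow, and 0.133 after adjustment over 4 pairs of related genes. Levels can be set side by side only per length. Per kb of annotated exon, HMOX1 averaged 66.5 ± 7.40 and HMOX2 113 ± 8.92 normalized counts in DMSO, and in PhenDC3 they averaged 1942 ± 62.1 and 116 ± 15.3.

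**Figure D1:**
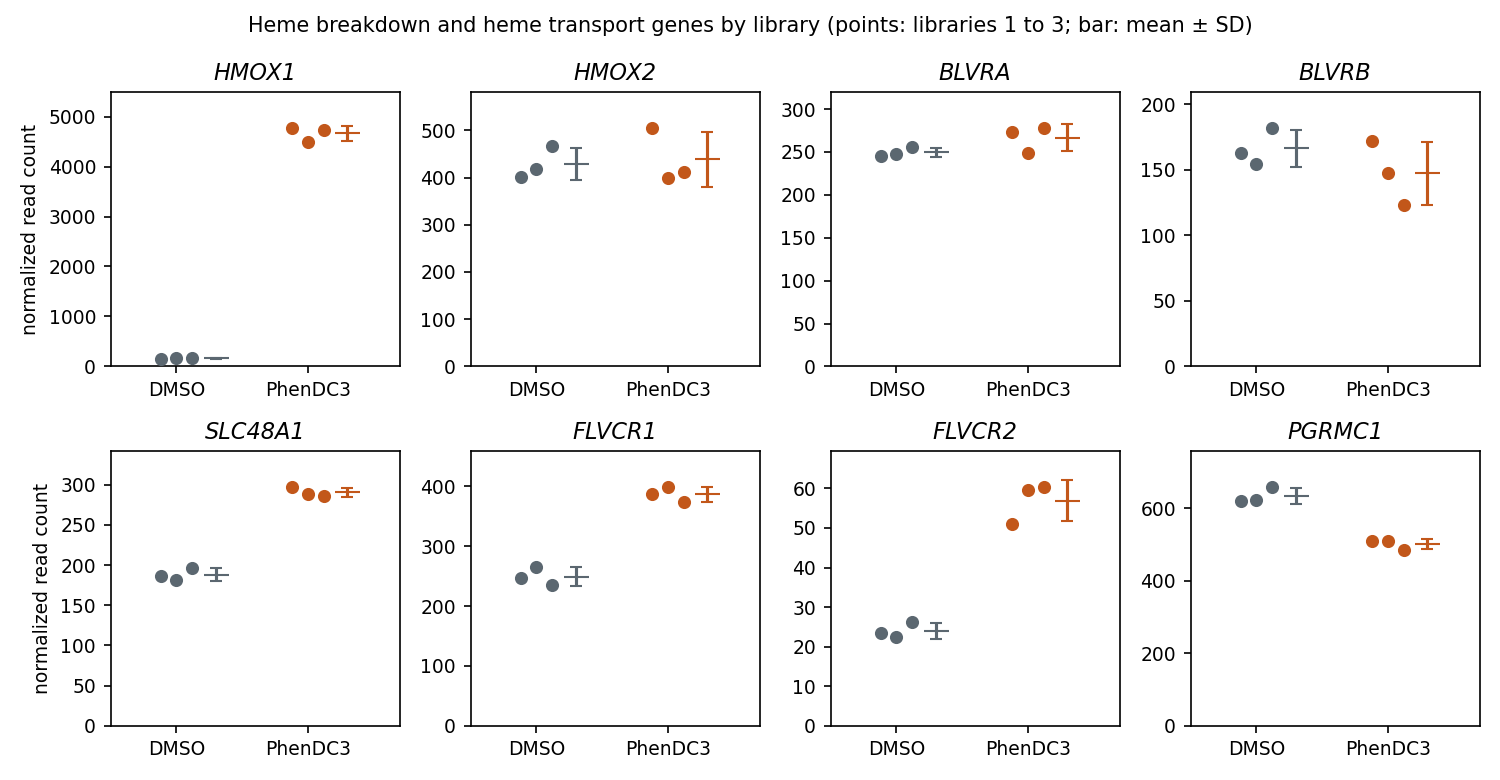
Normalized read counts of the 8 genes in each library, on linear axes that start at 0. Points are the 3 DMSO (gray) and 3 PhenDC3 (orange) libraries and bars give mean ± SD; HMOX1 goes from 142 to 177 up to 4499 to 4775, while HMOX2, BLVRA and BLVRB overlap between groups.

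The biliverdin reductases, which take the next step after heme oxygenase, did not pass the test. BLVRA (ENSG00000106605, chromosome 7), which makes bilirubin from biliverdin in adult tissue, was at 245, 247 and 256 normalized counts in DMSO and 273, 249 and 278 in PhenDC3. The lowest PhenDC3 library fell within the DMSO range, and the log2 change of 0.09 had an SE of 0.09 (limma, adjusted p = 0.392). The interval of 0.935 to 1.22 times the DMSO level excludes a doubling. BLVRB (ENSG00000090013, chromosome 19), which reduces biliverdin of another isomer and also flavins, read 163, 155 and 182 in DMSO and 172, 147 and 123 in PhenDC3. The PhenDC3 libraries were spread more widely than those of DMSO, with a coefficient of variation of 16.4% against 9.42% from counting error alone, and the ranges overlapped.

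The log2 change of BLVRB was -0.18, with an SE of 0.13 (limma, adjusted p = 0.216) and an interval of 0.735 to 1.06 times the DMSO level. This result depended on scaling. With libraries scaled by their total reads in place of the authors' size factors, BLVRB passed the threshold at a log2 change of -0.35 (limma, adjusted p = 0.0201), and HMOX2 and BLVRA turned negative without passing. That scaling moved the median of all tested genes to -0.18, and relative to this median BLVRB stood at -0.17, as it did with size factors. It also moved the calls over all genes to 3552 higher and 6613 lower, from 4806 and 5012. The ratio of BLVRA to BLVRB counts was 1.51, 1.60 and 1.41 in DMSO and 1.59, 1.69 and 2.26 in PhenDC3. These ranges overlapped by the lowest PhenDC3 library (exact permutation test, p = 0.2).

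**Figure D2:**
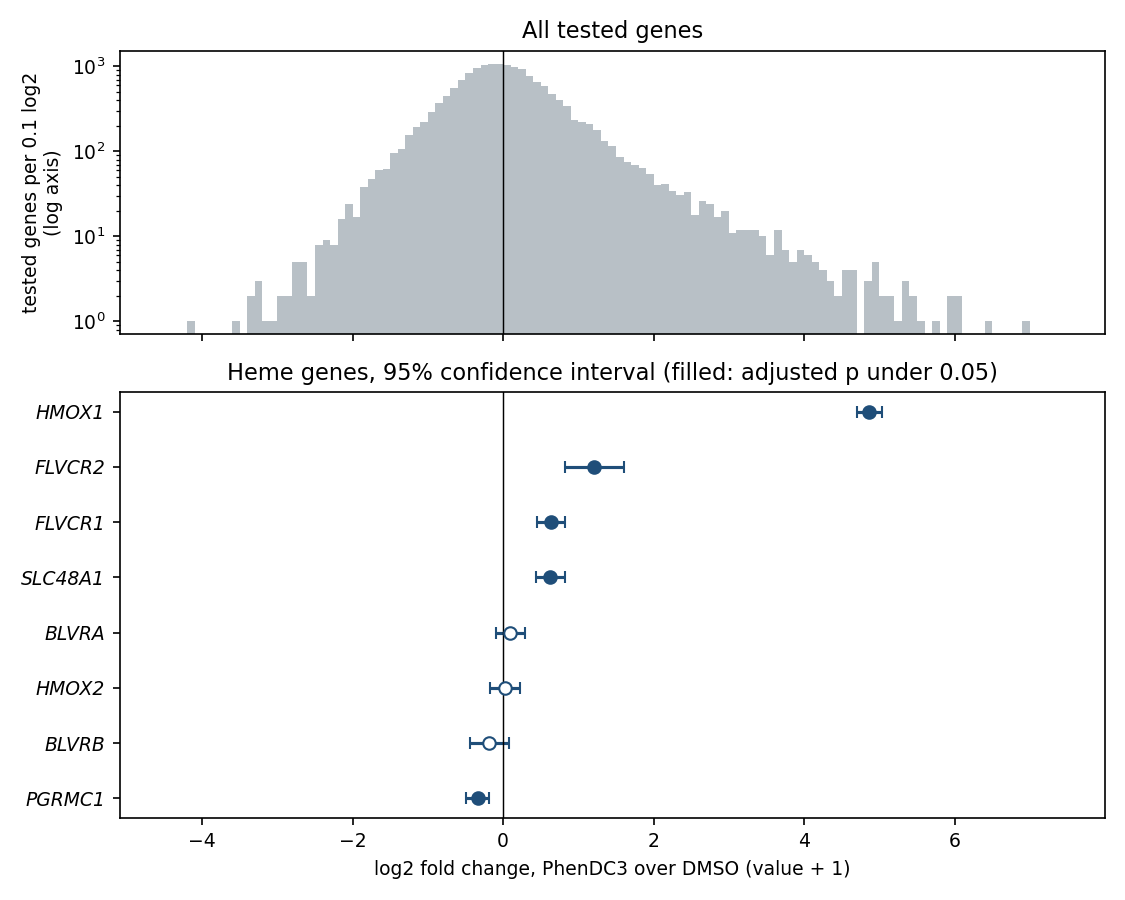
Upper panel, log2 fold changes of all 16482 tested genes, as the number of genes per bin on a log axis. Lower panel, the 8 heme genes with 95% confidence intervals; HMOX1 lies at 4.86 near the end of the upper tail, FLVCR2 at 1.21, and the open symbols did not pass the test.

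The carriers among the members, SLC48A1, FLVCR1 and FLVCR2, rose by smaller amounts than HMOX1. Heme carriers that are not members are given further below, and not all of them rose. The bases before the start of the carriers and of PGRMC1, members that passed the test and have an entry in the promoter table, are printed so that G-rich stretches, the kind of sequence PhenDC3 binds, can be seen. Each is the 250 bases before the annotated start on the gene's own strand, from RefSeq on GRCh38.p14, whereas the files use hg19. Capitals in SLC48A1 and PGRMC1 mark 4 runs of at least 3 G, joined by loops of 1 to 7 bases. In FLVCR1 and FLVCR2, where that motif was not found on either strand, capitals mark the same motif with loops of 1 to 12 bases, which in FLVCR1 is read as C on the strand shown, and the sequence CACGTG in FLVCR2.
SLC48A1, chr12:47772988-47773237, + strand: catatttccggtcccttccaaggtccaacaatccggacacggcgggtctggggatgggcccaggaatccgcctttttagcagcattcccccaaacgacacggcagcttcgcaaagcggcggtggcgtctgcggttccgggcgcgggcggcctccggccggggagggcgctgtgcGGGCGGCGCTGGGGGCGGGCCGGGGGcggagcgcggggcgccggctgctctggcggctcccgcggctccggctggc
FLVCR1, chr1:212858025-212858274, + strand: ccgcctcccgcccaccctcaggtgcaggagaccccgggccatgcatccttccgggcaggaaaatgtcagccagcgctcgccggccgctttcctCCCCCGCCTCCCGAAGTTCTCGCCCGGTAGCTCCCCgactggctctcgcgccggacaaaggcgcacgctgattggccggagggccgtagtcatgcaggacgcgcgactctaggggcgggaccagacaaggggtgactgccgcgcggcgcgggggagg
FLVCR2, the first of 2 listed starts, chr14:75578370-75578619, + strand: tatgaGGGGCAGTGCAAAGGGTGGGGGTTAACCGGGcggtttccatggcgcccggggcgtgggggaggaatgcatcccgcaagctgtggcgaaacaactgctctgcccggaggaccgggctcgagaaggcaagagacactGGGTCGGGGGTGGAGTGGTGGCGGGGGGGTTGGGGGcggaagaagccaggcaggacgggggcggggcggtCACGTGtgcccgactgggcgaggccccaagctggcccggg
PGRMC1, chrX:119236035-119236284, + strand: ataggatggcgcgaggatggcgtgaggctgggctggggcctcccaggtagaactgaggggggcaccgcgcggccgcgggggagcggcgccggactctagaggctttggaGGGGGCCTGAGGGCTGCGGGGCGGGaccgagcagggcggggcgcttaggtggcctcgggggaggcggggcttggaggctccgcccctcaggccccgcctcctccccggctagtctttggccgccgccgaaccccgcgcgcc

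The shorter-loop motif was found in a member that rose and in a member that fell. Of 7 members with a promoter entry, 2 held the motif with loops of 1 to 7 bases, SLC48A1, which rose, and PGRMC1, which fell. The motif was present on either strand of 23.5% of 35116 promoter windows of the same length. With loops of 1 to 12 bases 6 of the 7 held it, against 35.4% of all windows, and HMOX2 was the one without. A member counts if any of its windows, 9 over the 7 members, held the motif, whereas the shares are of single windows. In SLC48A1 it lies 76 to 51 bases before the start, and in PGRMC1 141 to 117 bases before it. TGACNNNGC, the core that NRF2 binds, was searched on both strands and found in none of the 7, against 10.9% of all windows. HMOX1 had no promoter entry, so it was not searched for this or any other motif. CACGTG, which reads the same on both strands, was found in FLVCR2 and HMOX2, against 6.34% of all windows. The members' windows are G and C rich, at 67.2% to 76.4% apart from the second starts of HMOX2 and FLVCR2, and a match in letters is not a measured site.

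SLC48A1 (ENSG00000211584, chromosome 12) carries heme out of lysosomes and endosomes into the cytosol. It stood at 187, 181 and 197 normalized counts in DMSO and at 297, 289 and 286 in PhenDC3. All PhenDC3 libraries were above all DMSO libraries. The PhenDC3 libraries had a coefficient of variation of 1.97%, below the 6.73% that counting error alone gives, so their closeness understates the error. The rise was 1.55-fold, with an interval of 1.35-fold to 1.77-fold (limma, log2 change of 0.63, SE 0.09, adjusted p = 8.08e-06). Of the tested genes, 18.1% had a higher log2 change. SLC48A1 shares 32 exonic bases with HDAC7 on the opposite strand, which was at 1052 and 900 normalized counts, and 83 with RAPGEF3, which stood at 25.9 and 20.3.

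FLVCR1 (ENSG00000162769, chromosome 1) is known as a heme exporter of the plasma membrane and also carries choline. Its levels were 247, 266 and 235 normalized counts in DMSO and 387, 399 and 374 in PhenDC3, with no overlap. The rise was 1.55-fold, with an interval of 1.36-fold to 1.76-fold (limma, log2 change of 0.63, SE 0.09, adjusted p = 3.50e-06). FLVCR1 and SLC48A1 had 95% intervals of 1.36 to 1.76-fold and 1.35 to 1.77-fold, which overlap; the difference between them was not tested. Their levels per kb of exon were also close, at 38.7 ± 2.42 and 38.2 ± 1.60 in DMSO and 60.0 ± 1.94 and 59.1 ± 1.17 in PhenDC3, with overlapping ranges in both groups.

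FLVCR2 (ENSG00000119686, chromosome 14), a relative of FLVCR1 described as a heme and choline carrier, was the least abundant member. It read 23.3, 22.4 and 26.2 normalized counts in DMSO and 50.9, 59.5 and 60.4 in PhenDC3, from 29 to 38 reads per DMSO library and 40 to 46 per PhenDC3 library. The groups did not overlap, and the spread within them, 8.21% and 9.22% of the mean, was below the 17.6% and 15.2% that counting error alone gives. The rise was 2.37-fold, with an interval of 1.76-fold to 3.04-fold, the widest of the members on the log2 scale (limma, log2 change of 1.21, SE 0.19, adjusted p = 1.34e-05). With a pseudocount of 1 the log2 change of such a low gene is somewhat understated.

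The FLVCR2 gene lies among others that were also counted. It shares 332 exonic bases with TTLL5 on the same strand, whose level was 599 ± 54.6 in DMSO and 494 ± 27.7 in PhenDC3. ERG28, a sterol synthesis gene inside FLVCR2 on the opposite strand, shares none and went from 496 ± 35.1 to 212 ± 10.8. Both passed the test as lower while FLVCR2 was higher, though TTLL5 lost its call without DMSO replicate 1 (log2 change -0.22) and without a variance trend (-0.28). The antisense RNA AC007182.1, which shares 972 exonic bases with FLVCR2, was not analysed here. The ratio of FLVCR1 to FLVCR2 counts was 10.6, 11.9 and 8.97 in DMSO and 7.60, 6.70 and 6.20 in PhenDC3, lower in every PhenDC3 library (exact permutation test, p = 0.1, and 0.133 adjusted over 4 pairs).

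PGRMC1 (ENSG00000101856, chromosome X) is a heme-binding membrane protein that associates with ferrochelatase and with cytochrome P450 enzymes, and it was the member that fell. Its levels were 619, 621 and 658 normalized counts in DMSO and 509, 509 and 484 in PhenDC3. The groups did not overlap, and the difference was several times the spread within either. That spread was 3.48% of the mean in DMSO, where counting error alone gives 3.43%. In PhenDC3 it was 2.87%, below the 5.13% from counting error, so it understates the error there. PGRMC1 fell to 79.2% of its DMSO level (limma, log2 change of -0.34, SE 0.07, adjusted p = 0.000601). Its interval ran from 0.711 to 0.882 times the DMSO level. A change of this size is common, as 58.9% of tested genes changed more in size.

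Its relative PGRMC2, which has been described as a heme chaperone, did not pass the test. PGRMC2 was at 884 ± 40.6 normalized counts in DMSO and 939 ± 73.5 in PhenDC3 (limma, log2 change of 0.08, SE 0.07, adjusted p = 0.339). The ratio of PGRMC1 to PGRMC2 counts was 0.728, 0.711 and 0.708 in DMSO and 0.594, 0.510 and 0.504 in PhenDC3, with no overlap (exact permutation test, p = 0.1, and 0.133 adjusted over 4 pairs). Of the other proteins that PGRMC1 is known to associate with, all 4 listed were lower, against 30.4% of all tested genes. The list was chosen with the fall of sterol genes in these libraries known, and its count is therefore a description only. They were TMEM97, the sigma-2 receptor, at 0.248 of its DMSO level, CYP51A1, a P450 of sterol synthesis, at 0.569, INSIG1 at 0.685 and SCAP at 0.716.

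**Figure D3:**
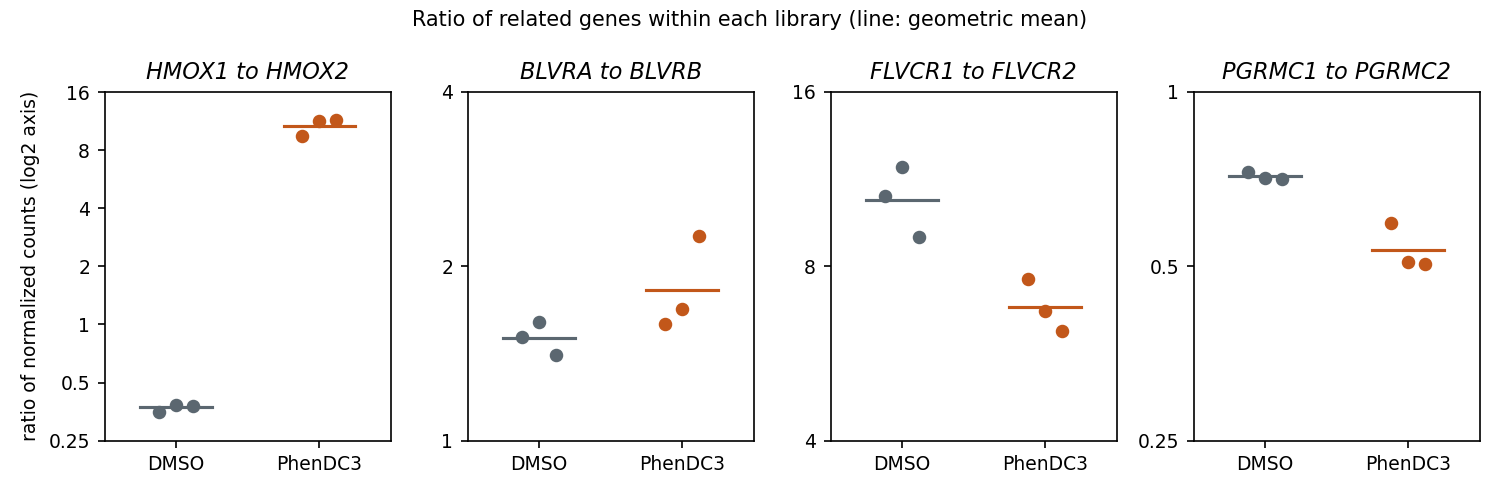
Ratio of normalized counts of 2 related genes within each library, on log2 axes that differ in range; points are libraries and lines are geometric means. HMOX1 to HMOX2 rises from 0.353 to 0.384 up to 9.45 to 11.5, FLVCR1 to FLVCR2 and PGRMC1 to PGRMC2 are lower in each PhenDC3 library, and BLVRA to BLVRB overlaps.

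The order of the members by level per kb of exon differed between the groups mainly through HMOX1. In DMSO PGRMC1 was highest at 329.6 ± 11.5 normalized counts per kb, followed by BLVRA at 137 ± 3.09, HMOX2, BLVRB at 98.6 ± 8.34, HMOX1, FLVCR1, SLC48A1 and FLVCR2 at 4.88 ± 0.40. The ranges of HMOX2 and BLVRB overlapped, as did those of FLVCR1 and SLC48A1. In PhenDC3 HMOX1 came before PGRMC1, which averaged 261 ± 7.48 per kb, and the other members kept their order. Among neighbours in that order only FLVCR1 and SLC48A1 had overlapping ranges. Exon lengths came from GENCODE 29, and a transcript that uses only part of them is understated.

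Heme oxygenase needs electrons from cytochrome P450 reductase, encoded by POR. POR went from 465 ± 46.8 to 750.3 ± 47.5 normalized counts, a rise of 1.61-fold (limma, log2 change of 0.69, SE 0.08, adjusted p = 6.33e-07). HM13, the signal peptide peptidase that cuts HMOX1 in the membrane, was at 1481 ± 113 and 1387 ± 70.3, and RNF139, a ubiquitin ligase for HMOX1, at 421 ± 19.1 and 434 ± 1.40, neither passing the test. With total-read scaling HM13 passed as lower, at a log2 change of -0.26. These 3 genes made up the list of enzyme partners, so 1 of 3 was called, against 59.6% of all tested genes.

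The regulators of HMOX1 transcription changed in all 9 cases listed, against 59.6% of all tested genes, with 6 higher, 3 lower and a median log2 change of 0.50. That list too was chosen with earlier results of these data known, and its count is a description only. MAFK and MAFG, small MAF proteins that pair with both NRF2 and BACH1, rose 3.61-fold and 2.67-fold, and MAFF 1.42-fold. BACH1, the repressor that heme releases from DNA, rose 1.44-fold, from 572 ± 55.5 to 827 ± 24.4 normalized counts. KEAP1, which marks NRF2 for degradation, rose 1.71-fold and CUL3, its ligase partner, was lower at 0.865. NFE2L2, which encodes NRF2, was at 1295 ± 46.8 and 1164 ± 10.6 (limma, log2 change of -0.15, SE 0.06, adjusted p = 0.0458). That call was kept in 5 of 12 other settings and in 1 of 6 fits without a library. NFE2L2 was not called by DESeq2 or in the authors' deposited table (adjusted p = 0.0895 in each). HSF1 was 1.24-fold higher, a call lost without PhenDC3 replicate 1 (log2 change 0.23), and CUL3 lost its call without PhenDC3 replicate 3 (-0.19). Both also lost it without a variance trend, and HSF1 with total-read scaling. NFE2L1 was lower, at 0.734 of its DMSO level.

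Of 14 other heme carriers and binding proteins, 10 were tested, 2 being higher and 2 lower, with a median log2 change of 0.05. Over all tested genes 29.2% were higher and 30.4% lower. HEBP2, a heme-binding protein, rose 1.35-fold. SLC49A4, a relative of FLVCR1 and FLVCR2, was lower at 0.802 of its DMSO level, while SLC49A3, another, was at 8.62 and 15.0 normalized counts and did not pass. SLC49A3 passed without PhenDC3 replicate 2, at a log2 change of 1.00, and with edgeR with and without mitochondrial genes, at 0.82 and 0.83. ABCB6, a porphyrin transporter, was lower at 0.761 and ABCC5, a heme exporter, higher at 1.14-fold, but ABCB6 lost its call without DMSO replicate 3 or PhenDC3 replicate 2, and ABCC5 without DMSO replicate 2, PhenDC3 replicate 1 or PhenDC3 replicate 2. Without a library their log2 changes reached -0.24 and 0.15, and both calls were also lost without a variance trend and with thinned reads. ABCB6 was not called by DESeq2 or in the authors' deposited table either (adjusted p = 0.127 in each), and ABCC5 was at 0.022 with total-read scaling and not called. ABCG2, an exporter of heme and porphyrins, was low, at 12.5 ± 4.20 and 8.57 ± 3.06 (limma, log2 change of -0.50, SE 0.36, adjusted p = 0.239). HPX, the plasma heme scavenger, had no reads in DMSO and 3.15 normalized counts on average in PhenDC3, too few to be tested.

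Of 12 heme synthesis genes tested, 3 were higher and 5 lower, with a median log2 change of -0.065. The 8 called are close to the 59.6% called over all tested genes. ALAS1, the first and rate-limiting enzyme, rose 1.59-fold, SLC25A38, the carrier of its substrate glycine, 1.30-fold and CLPX, which activates and turns over the enzyme, 1.27-fold. The later enzymes UROS, PPOX and ALAD fell to 0.663, 0.680 and 0.818 of their DMSO levels, as did the mitochondrial proteins SLC25A39 (0.764) and TMEM14C (0.829). FECH, ferrochelatase, which places the iron, was at 343 ± 2.63 and 339 ± 14.9 normalized counts and did not pass the test (limma, log2 change of -0.02, SE 0.08, adjusted p = 0.863).

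Of 10 tested genes of general iron handling, not only of iron released from heme, 2 were higher and 5 lower, with a median log2 change of -0.12. The 7 called are also near that 59.6%. The ferritin subunits FTH1 and FTL, which store iron, were the 2 that rose, 6.90-fold and 4.75-fold, though both have processed pseudogenes that could share reads. FBXL5, which degrades iron regulatory protein, fell to 0.714, TFRC, the transferrin receptor, to 0.771, ACO1, an iron regulatory protein, to 0.776, and the iron chaperones PCBP2 and PCBP1 to 0.827 and 0.836. SLC40A1, the iron exporter, was too low to be tested, at 0.75 and 2.30 normalized counts. Of 4 genes for bilirubin disposal in liver, 2 were tested, and SLCO1B3, an uptake carrier, was lower at 0.630.

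**Figure D4:**
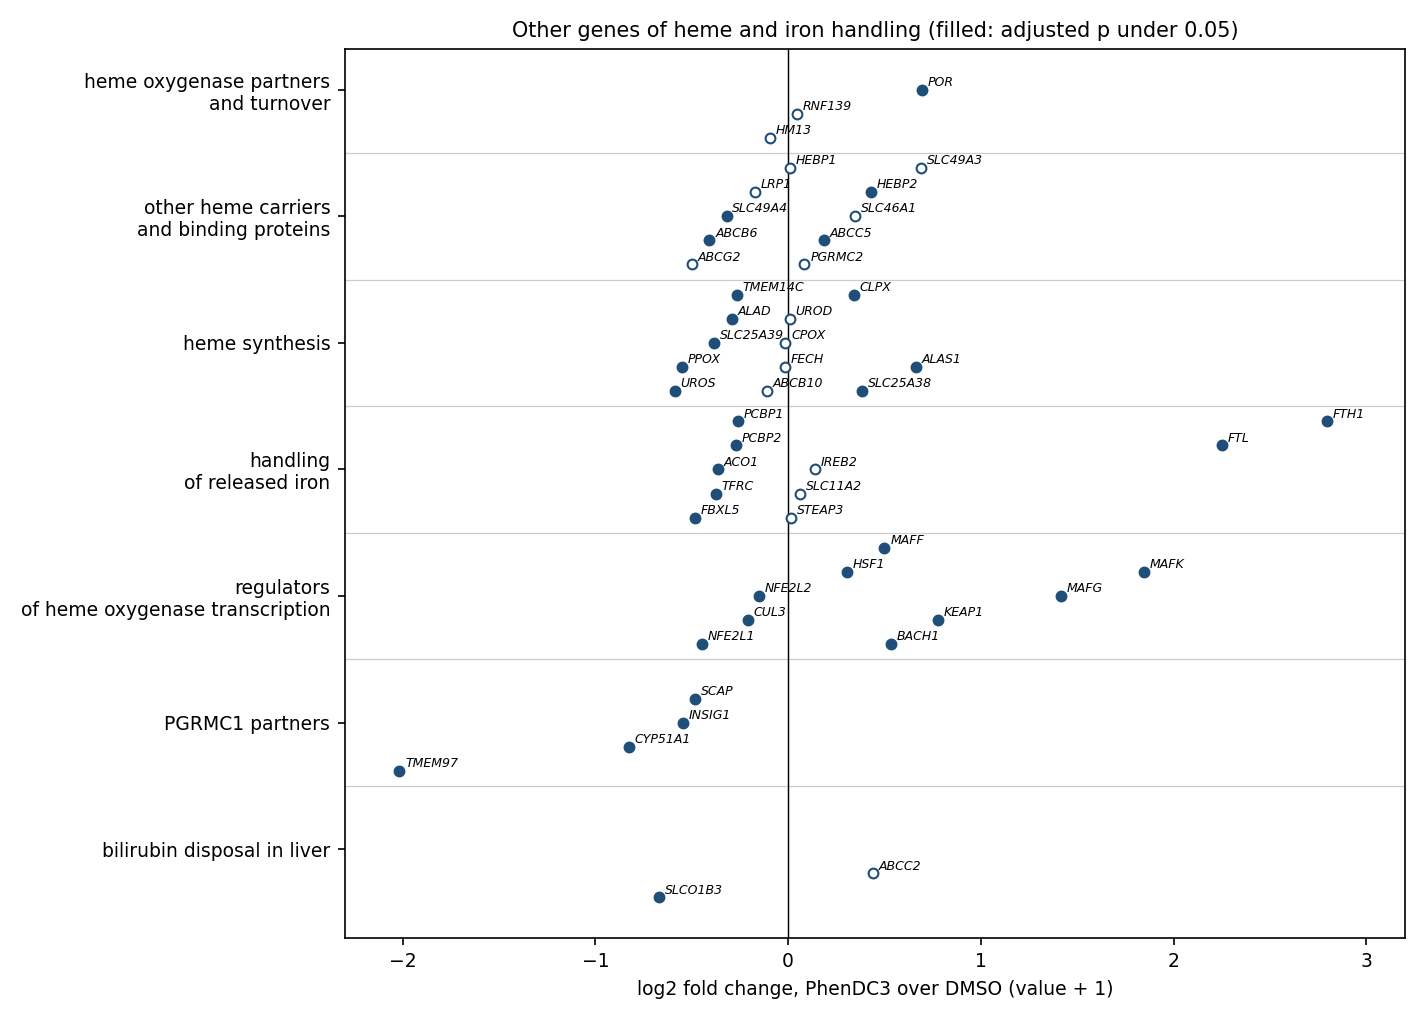
Log2 fold change of each tested gene of the 7 lists around heme and iron handling, filled where limma's adjusted p was under 0.05. Regulators of HMOX1 lie between -0.45 and 1.85, the 4 PGRMC1 partners between -2.02 and -0.48, and FTH1 and FTL stand apart at 2.80 and 2.25.

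Genes whose pattern over the 6 libraries was most like that of HMOX1 were sought among 9646 others with a mean of 100 or more normalized counts. The 5 nearest, by Euclidean distance between centred log2 values, were RNR2, MTRNR2L2, MRNIP, ARC and MT-TE, at distances of 0.26 to 0.66. RNR2 and MT-TE are an rRNA and a tRNA of the mitochondrial genome, and MTRNR2L2 is a nuclear relative of that rRNA. Genes within a distance of 0.5 numbered 3. For PGRMC1 the nearest were GTF2E1, DAP, LARP7, EPDR1 and HADHB, at 0.05 to 0.07, but 4040 genes lay within 0.5 of it. With 2 groups of 3 libraries this likeness mostly restates the size of the change.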

How the data were processed

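Poly(A) RNA of 6 libraries was compared, grouped as in the labels. Per the submitters' processing notes, the tools included STAR 2.7, TopHat2 2.0.11, featureCounts and DESeq2 1.18.1, with the build hg19 and no step named. How genes were annotated, filtered and counted by strand is not given in these sources. The deposited signal is gene reads over a size factor for each library, since 100% of values were whole multiples of the smallest, within a relative tolerance of 1e-06. The deposited log2 fold change and adjusted p-value are the authors' own, per the file headers.

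Genes were tested on log2(value + 1) by limma 3.58.1 (R 4.3.3), with a variance trend and no block, over the 16482 genes with a mean of 5 or more, adjusted by Benjamini-Hochberg with a threshold of 0.05. edgeR 4.0.16, on 14984 genes, and DESeq2 1.42.0 were run on recovered reads, edgeR calling 9437 genes. limma was tested on simulated data. Far fewer genes changed there than were called here, so that run cannot tell how many calls here are false. Members, lists and tests were chosen with earlier results of these data known. Named genes are the members, genes of the 7 lists, overlapping genes and the 5 nearest in pattern to the largest riser and faller among the members. Some genes first placed in these lists are not reported here and were left out of the lists' counts. RefSeq promoters matched 7 of 8 members; HMOX1 had no entry. Ratios of related genes were compared with scipy 1.17.1. The other settings tried are in the closing section.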

Additional observations from a re-analysis of the deposited data

How the results depend on the processing

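The 5 members that passed the test did so with the same sign in all 12 other settings and in all 6 fits without 1 library. The authors' deposited table, compared after seeing the data, is among the 12. DESeq2 run here gave nearly the same values as that table, so they are not separate checks. Settings that changed only the filter on low values, the variance trend or the block kept each log2 change by construction. In those only the call could differ, not the sign. Without a library the log2 change was 4.78 to 4.94 for HMOX1, 0.60 to 0.66 for SLC48A1, 0.59 to 0.68 for FLVCR1, 1.17 to 1.29 for FLVCR2 and -0.35 to -0.31 for PGRMC1. HMOX2 ranged from -0.077 to 0.094 in those fits and was never called. With total-read scaling HMOX2 was at -0.14, BLVRA at -0.070 and BLVRB at -0.35, the last being called, and RNF139 and PGRMC2 turned to -0.12 and -0.081, not called. That scaling carries the share of mitochondrial reads into every gene by its construction. FECH turned to 0.00629 with edgeR without mitochondrial genes and to 0.0129 with thinned reads, and ranged from -0.0532 to 0.00815 without a library, never called.

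The count of 9818 genes fell to 2692 when a log2 change of 1 or more was required, by construction. It was 8937 to 9646 without a library. With loops of 1 to 12 bases 6 members held the G-run motif in place of 2. Residuals of same-numbered libraries correlated at 0.008, 0.071 and 0.027, which gave little sign of pairing. A replicate block gave 10155 called genes, with 5 members among them, and changed no member's call. Depth limits the genes with few reads: FLVCR2 rested on 97 reads in DMSO and 129 in PhenDC3.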
